A study of Drosophila melanogaster with 18 samples.

Results

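Aminoacyl-tRNA synthetases are the enzymes that join each amino acid to its transfer RNA, the step that fixes which amino acid the ribosome adds for a codon. Animal cells keep a cytosolic set for translation of nuclear messages and a mitochondrial set, also encoded in the nucleus, for translation of messages from mitochondrial DNA. Transcription of cytosolic synthetase genes is known to rise, together with amino acid transporters and asparagine synthetase, when amino acids run short and the transcription factor ATF4 (crc in Drosophila) is made. The genes were chosen by name: a single gene symbol on the probe set made of an amino acid abbreviation and RS, with the ending -m for a mitochondrial enzyme, and the probe set with the highest mean intensity per gene. Of 11981 genes with a probe set of 1 symbol, 30 met this rule, 16 cytosolic (AlaRS, ArgRS, AsnRS, CysRS, GlnRS, GluProRS, GlyRS, HisRS, IleRS, LeuRS, LysRS, SerRS, ThrRS, TrpRS, TyrRS and ValRS) and 14 mitochondrial (ArgRS-m, AsnRS-m, AspRS-m, CysRS-m, GluRS-m, IleRS-m, LeuRS-m, MetRS-m, PheRS-m, ProRS-m, SerRS-m, TrpRS-m, TyrRS-m and ValRS-m). AspRS, MetRS and AlaRS-m were not analysed here, and the subunit genes alpha-PheRS and beta-PheRS fall outside the name rule and are given among the partners. The split rests on gene names: in humans the genes for the glycine and lysine enzymes serve both compartments.

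The series followed Drosophila melanogaster cell lines R3 and R7 through successive passages on 18 Affymetrix arrays, 9 per line, to look for genes expressed together during immortalization. For R3 the early stage held 2 replicates of passage 2 (P2), the intermediate stage 4 passages from P5 to P8 and the late stage P16, P17 and P19. For R7 the early stage held 2 replicates of P2 and P3, the intermediate stage P7 and P8 and the late stage again P16, P17 and P19, and the array at P4, which fits both labelled stages, was kept apart. Both lines grew in Schneider's medium with 10% fetal bovine serum and antibiotics, with no treatment that differed between groups. The labels name no tissue, genotype or transgene, and each line is 1 culture sampled over time. Successive passages therefore stand in for replicates, and p-values speak only of the spread among the passages of 1 culture.

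Values are intensities on a linear scale, and the level of one probe set cannot be set against that of another. All 30 genes lay above the intensity floor of 32 on all 18 arrays, from 51.9 (GluRS-m) to 2912 (SerRS), and all were among the 10200 probe sets tested. Array medians lay between 23.2 and 30.4 and the ratio of 3' to 5' GAPDH probe sets between 1.14 and 1.35. The R3 arrays did not group as their labels do. Over all tested probe sets the array labelled R3 P19 was most like the one labelled R3 P2 replicate 1 (Pearson r = 0.994, 2.35% of probe sets past 1.5-fold), while its r with the other R3 arrays lay between 0.939 and 0.952. R3 P2 replicate 2 was most like P6 (r = 0.990, 5.29%). The fat body marker apolpp read 530 in R3 P2 replicate 1 and 450 in R3 P19, against 54.9 in replicate 2 and 32.4 to 50.1 from P5 to P17, and Him, a marker of adult muscle precursors, read 408 and 440 against 44.7 and 29.95 to 65.2. The files do not settle which of these arrays goes against its label. At R3 P2, 7.82% of tested probe sets were over 1.5-fold higher and 9.9% over 1.5-fold lower in replicate 2 than in replicate 1, against 0.167% and 0.255% between the R7 P2 replicates. Between R3 P19 and P17 these shares were 10.1% and 10.2%. Comparisons with R3 early or late arrays are therefore given with all arrays and with R3 P19 left out together with P2 replicate 2 or with P2 replicate 1. The second pair was chosen after seeing the data, and each leaves R3 early as 1 array assumed to vary like the other groups.

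Between early and late passages of R7, 3 mitochondrial synthetase genes rose and 2 cytosolic ones fell. ArgRS-m, TrpRS-m and ValRS-m were higher in late arrays, and LysRS and GluProRS were lower. The changes were between 1.26-fold and 1.49-fold. Thus 3 of 14 mitochondrial and 0 of 16 cytosolic genes rose, and 0 and 2 fell, at a Benjamini-Hochberg adjusted p under 0.05 over all tested probe sets (limma), where 8.75% of tested probe sets rose and 11.2% fell. The share of all 30 genes called, 5 of 30, was near the 19.9% called among all probe sets.

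LysRS, which charges the lysine tRNA, read 1299, 1160 and 1125 in the R7 early arrays (P2 replicates 1 and 2, P3), 984 at P4, 1018 and 972 at P7 and P8, and 873, 862 and 883 at P16, P17 and P19. Every late array lay below every other R7 array. The mean fell 1.37-fold, from 1194 ± 92.1 (SD, n = 3 arrays) to 873 ± 10.3 (n = 3), a log2 difference of -0.45 ± 0.07 (SE; limma adjusted p = 0.000957). GluProRS, a bifunctional enzyme that charges both the glutamate and the proline tRNA, read 1483, 1335 and 1284 in the early arrays, 1283 at P4, 1182 and 1250 at P7 and P8, and 1121, 1102 and 1033 in the late arrays. Its late arrays lay below all other arrays of the line. GluProRS fell 1.26-fold (log2 -0.33 ± 0.08 SE, limma adjusted p = 0.0144), from 1367 ± 104 to 1085 ± 46.1. Both genes also had negative slopes on log2 of the passage number, -0.15 ± 0.02 for LysRS (limma adjusted p = 0.00056) and -0.11 ± 0.03 for GluProRS (0.00767).

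ArgRS-m, the mitochondrial arginine enzyme, read 101, 98.7 and 79.7 in the early arrays, 67.0 at P4, 75.2 and 105 at P7 and P8, and 148, 127 and 138 in the late arrays. It was lowest at P4 and highest late, with no overlap between early and late arrays. The mean rose 1.49-fold, from 93.2 ± 11.8 to 138 ± 10.4 (n = 3 each; log2 0.57 ± 0.12 SE, limma adjusted p = 0.00758). TrpRS-m, for tryptophan, read 302, 261 and 255 early, 282 at P4, 338 and 334 at P7 and P8, and 340, 350 and 363 late. Here the intermediate arrays already lay close to the late ones. TrpRS-m rose 1.29-fold from early to late (log2 0.37 ± 0.09 SE, limma adjusted p = 0.013). ValRS-m, for valine, read 78.4, 70.5 and 55.2 early, 68.9 at P4, 77.4 and 72.8 at P7 and P8, and 87.1, 99.5 and 98.4 late. Its late arrays lay above all other R7 arrays, and it rose 1.41-fold (log2 0.49 ± 0.15 SE, limma adjusted p = 0.0386).

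**Figure D1:**
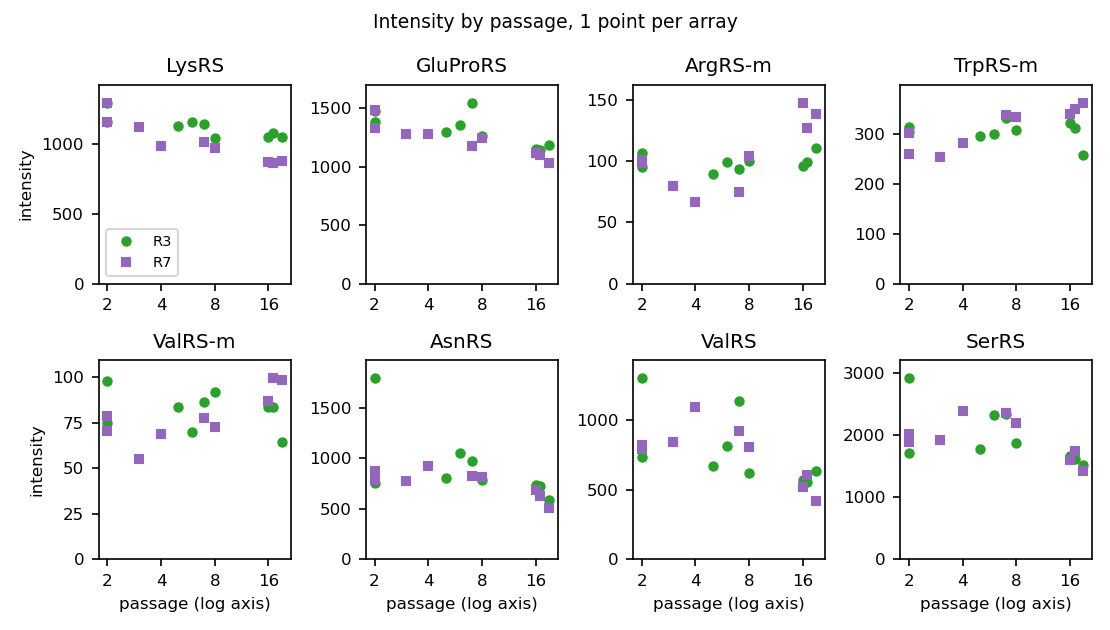
Deposited intensity (linear axis from 0) against passage number (log axis) for 8 synthetase genes, 1 point per array, R3 as circles and R7 as squares. The R7 squares for LysRS end at 862 to 883 and those for ArgRS-m at 127 to 148, while AsnRS, ValRS and SerRS have their highest point in the array labelled R3 P2 replicate 2.

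The calls differed in how they held. ArgRS-m and LysRS were called with each of the 18 arrays left out in turn. GluProRS was not called without R7 P2 replicate 1 (limma adjusted p = 0.0632) or R7 P19 (0.0655), TrpRS-m without R7 P2 replicate 2 (0.0569) or R7 P19 (0.0561), and ValRS-m in 8 of the 18 fits (up to 0.129, without R7 P3). The count of 5 became 2 when R7 P19 was left out, 3 when R7 P2 replicate 2 was, and 9 when 1 of the R3 P2 arrays was. The R3 P2 arrays enter the shared estimate of spread. The shares of all tested probe sets called in these fits are not given here, so these changes are not a result about the synthetases.

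Across the whole cytosolic set the R7 log2 differences from early to late were below 0 for 16 of 16 genes, with a median of -0.24 (range -0.68 to -0.01). With equal array medians, however, 8 of 16 were below 0 and the median was 0.00. As deposited, 13 were below 0 without R7 P2 replicate 1 or without R7 P19, and 14 without R7 P16 or without R7 P17. TrpRS had -0.05 on the probe set used, but 0.10 and 0.04 on its other probe sets. The mitochondrial set had 7 of 14 below 0 and a median of 0.03 (range -0.22 to 0.57), and with equal medians 0 of 14 below 0 and a median of 0.27. The median of all tested probe sets was -0.03 as deposited, with 54.6% of differences below 0, and 0.15 under the other scaling. Because the medians of the arrays are under 32, that scaling is set by weak signal; with it LysRS (log2 -0.21, limma adjusted p = 0.161) and GluProRS (-0.09, 0.618) were not called. The gap between the classes does not depend on a factor per array: the cytosolic median minus the mitochondrial median was -0.27 with either scaling. It lay between -0.43 and -0.20 over 33 settings, below 0 in each of them. Most of these settings, such as leaving out an R3 array, cannot move it, so their sign adds nothing. With 1 early or late R7 array left out the gap lay between -0.34 and -0.23.

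More genes had separate ranges of readings than the test called. Late R7 arrays lay below all early R7 arrays for 8 of 16 cytosolic genes (AsnRS, CysRS, GluProRS, LeuRS, LysRS, SerRS, ThrRS and ValRS), against 19.6% of all tested probe sets. They lay above them for 4 of 14 mitochondrial genes (ArgRS-m, IleRS-m, TrpRS-m and ValRS-m), against 17.6%. ValRS, the cytosolic valine enzyme, had the lowest log2 difference of the set, -0.68 ± 0.23 SE, and was not called (limma adjusted p = 0.053). LeuRS, for leucine, had -0.43 ± 0.16 (0.0756), and ThrRS, for threonine, -0.40 ± 0.15 (0.0869). AsnRS, for asparagine, had -0.43 ± 0.24 (0.243). In the fit without R3 P2 replicate 2 and R3 P19, whose values enter the shared spread, ValRS (0.0255), LeuRS (0.0187), ThrRS (0.0185) and AsnRS (0.0293) were called lower, which made 3 of 14 mitochondrial genes higher and 6 of 16 cytosolic genes lower, where 13.2% and 16.5% of tested probe sets were called. The same 9 genes were called when R3 P2 replicate 1 and R3 P19 were left out, against the same shares.

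**Figure D2:**
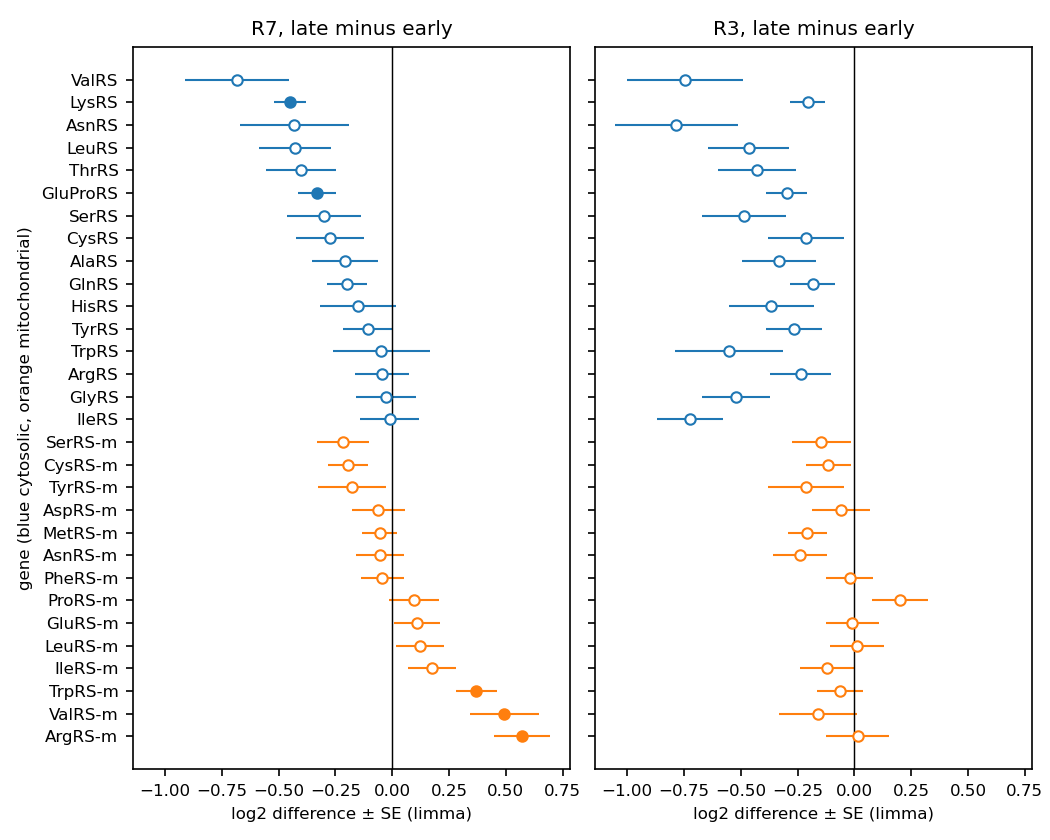
Log2 difference of late minus early arrays ± SE (limma) for each of the 30 genes, R7 left and R3 right, cytosolic in blue and mitochondrial in orange, filled where the adjusted p was under 0.05. All 16 cytosolic points lie left of 0 in both lines as deposited, while with equal array medians 8 of 16 did in R7 and 16 of 16 in R3; the 5 filled points are in R7.

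The steps between the R7 stages were tested separately. From early to intermediate passages 0 of 30 genes were called by limma, with 2 at an unadjusted p under 0.05, against 2.48% called and 19.4% at that unadjusted p among all tested probe sets. From intermediate to late passages ArgRS-m was called higher, log2 0.63 (limma adjusted p = 0.0195), where 2.02% of probe sets were called higher and 2.66% lower. That call was not made without R7 P7 (0.346), R7 P16 (0.0661) or R7 P19 (0.0648). With R3 P19 and either R3 P2 array left out, LysRS was called lower and TrpRS-m higher from early to intermediate (4.86% to 4.87% of probe sets higher, 6.24% to 6.26% lower). LeuRS and SerRS were then called lower and ArgRS-m higher from intermediate to late (3.97% to 3.99% higher, 4.87% lower). The class gap per array, relative to the line's early mean, was -0.10 to 0.05 in the early arrays, 0.29 at P4, 0.04 and -0.08 at P7 and P8, and -0.35, -0.22 and -0.37 at P16, P17 and P19. The late arrays did not overlap the others. Over all R7 passages the slope on log2 passage was called for LysRS, GluProRS, ArgRS-m, TrpRS-m and ValRS-m, 3 up and 2 down, where 8.56% of probe sets had a called positive slope and 11% a negative one. The slope of TrpRS-m was called in every alternative run. Those of LysRS and GluProRS were not called with equal array medians (limma adjusted p = 0.15 and 0.581). The ArgRS-m slope was not called in 4 of the 18 fits with 1 array left out, without R7 P3 or any single late R7 array (up to 0.129), and that of ValRS-m in 7 of 18 (up to 0.141). Neither was called with no filter (0.0824 and 0.0908) or with R7 arrays alone (0.112 and 0.0571).

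**Figure D3:**
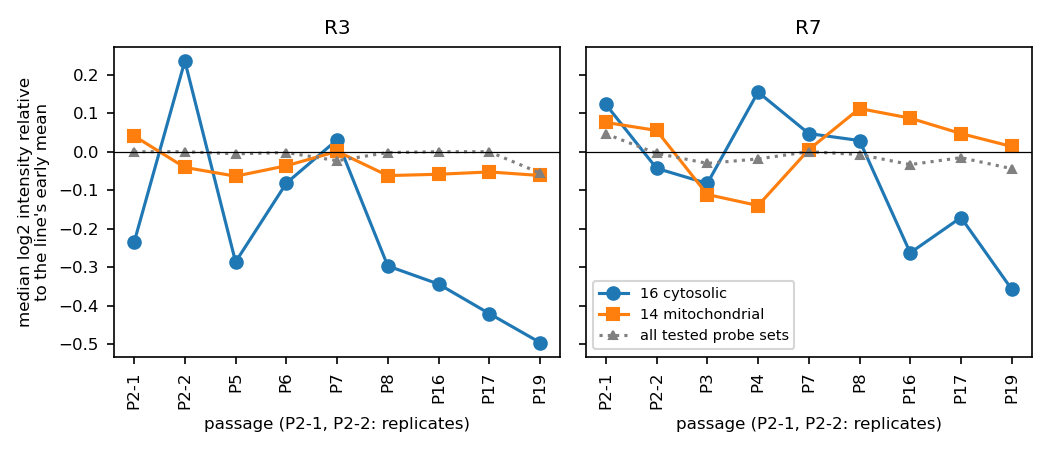
Median log2 intensity of the 16 cytosolic genes, the 14 mitochondrial genes and all tested probe sets relative to the line's early mean (y axis), by passage (x axis), 1 point per array. In R7 the cytosolic median is 0.15 at P4 and -0.36 at P19, in R3 it is -0.24 and 0.24 in the P2 replicates and -0.50 at P19, as deposited; with equal array medians the R7 late-minus-early median of the cytosolic set was 0.00, and the gap between the classes was the same.

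In R3 no synthetase gene was called between early and late passages, and neither was any other probe set: limma called 0 of 30 genes and 0% of the 10200. At an unadjusted p under 0.05, 11 of 30 genes had a difference, 10 of them cytosolic, against 6.01% of tested probe sets. All 16 cytosolic genes had log2 differences below 0 as deposited and under both other scalings (quantile, equal medians), with a median of -0.40 as deposited, against -0.09 for the mitochondrial set (11 of 14 below 0) and -0.02 for all tested probe sets. Late arrays lay below both P2 arrays for 12 of 16 cytosolic and 3 of 14 mitochondrial genes, against 8.68% of probe sets, and above both for none of the 30, against 3.18%. The slope on passage was called for 0 of 30 genes (0% of all), with 12 at an unadjusted p under 0.05, against 5.71%. The steps from early to intermediate and from intermediate to late had 0 calls each (0% of all), with 2 and 4 genes at an unadjusted p under 0.05, against 7.16% and 4.17%.

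The size of the R3 difference rested on which P2 array was used. Against replicate 2 alone (without replicate 1) the cytosolic median was -0.70, and in that array 10 of 16 cytosolic genes had their highest reading. Against replicate 1 alone the median was -0.21, with 15 of 16 below 0. Without R3 P2 replicate 2 and R3 P19, 14 of 16 cytosolic genes were below 0 with a median of -0.12, and the mitochondrial median was -0.14. The class gap was then 0.02, against -0.31 with all arrays. In that fit IleRS, for isoleucine, had a log2 difference of -0.60 ± 0.16 SE. IleRS was also the 1 synthetase gene called without R3 P19 alone. The share of all probe sets called without R3 P19 alone is not given here, so that count is not a result about the synthetases. Late arrays then lay below the P2 array for 14 of 16 cytosolic and 9 of 14 mitochondrial genes, against 40.4% of probe sets, and 5 of 30 genes had an unadjusted p under 0.05, against 24.7%.

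Leaving out replicate 1 and R3 P19 gave another picture. All 16 cytosolic genes were below 0 with a median of -0.68, the mitochondrial median was -0.05 and the class gap was -0.63. AsnRS (log2 -1.30 ± 0.19 SE, limma adjusted p = 0.0207) and IleRS (-1.01 ± 0.16, 0.034) were called lower, where 0.548% of probe sets were. At an unadjusted p under 0.05 there were 11 of 30 genes, against 14.4%, and late arrays lay below the P2 array for 16 of 16 cytosolic and 7 of 14 mitochondrial genes, against 33.8%. The R3 slope was called lower for AsnRS and IleRS in that fit (0.299% of probe sets), and for 0 of 30 genes without replicate 2 and R3 P19 (1.38%). The steps within R3 had 0 synthetase genes called either way, against 9.54% and 0.0894% of probe sets without replicate 2 and R3 P19 and 0.169% and 0.0896% without replicate 1 and R3 P19. How far the cytosolic set was below its early level in R3 thus depended on the P2 array it was set against.

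The 5 genes called in R7 were not called in R3, and for these genes the difference between the lines was not called either (limma adjusted p from 0.111 for TrpRS-m to 0.923 for GluProRS). LysRS read 1296 and 1158 at R3 P2, 1128, 1156, 1143 and 1044 at P5 to P8, and 1051, 1084 and 1052 late, with late arrays below both P2 arrays. GluProRS read 1383 and 1477, then 1294, 1355, 1550 and 1265, and 1157, 1143 and 1188 late, also below all earlier R3 arrays. Their log2 differences from early to late were -0.21 ± 0.08 SE and -0.30 ± 0.09, not called by limma (adjusted p = 0.778 and 0.755). They were -0.28 and -0.27 (limma adjusted p = 0.0988 and 0.218) without R3 P2 replicate 2 and R3 P19, and -0.12 and -0.36 (0.695 and 0.206) without replicate 1 and R3 P19.

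The mitochondrial genes called in R7 overlapped between early and late in R3. ArgRS-m read 107 and 95.5 at R3 P2, 89.8, 99.5, 93.4 and 100.2 at P5 to P8, and 96.5, 99.4 and 111 late (log2 difference 0.01 ± 0.14 SE). TrpRS-m read 315 and 304, then 296, 300.1, 333 and 309, and 322, 312 and 259 late (-0.06 ± 0.10). ValRS-m read 74.9 and 98.1, then 83.5, 70.0, 86.1 and 91.9, and 83.8, 83.5 and 64.6 late (-0.16 ± 0.17). Their limma adjusted p lay between 0.955 and 1. Without R3 P2 replicate 2 and R3 P19 the signs turned, to -0.12 for ArgRS-m, 0.01 for TrpRS-m and 0.16 for ValRS-m, and none was called (limma adjusted p from 0.708 to 1). With replicate 1 and R3 P19 left out they were 0.04, 0.06 and -0.23, none called (0.695 to 1).

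IleRS, chosen for description after its values were seen, read 1455 and 1933 in the R3 P2 replicates, 1189, 1377, 1446 and 1232 at P5 to P8, and 1042, 884 and 1142 in the late R3 arrays. In R7 it read 1499, 1283 and 1197 early, 1323 at P4, 1345 and 1366 at P7 and P8, and 1440, 1235 and 1266 late. The R3 late arrays lay below all other R3 arrays, while early and late overlapped in R7. The difference between the lines in the change from early to late, R7 minus R3, was 0.71 ± 0.20 SE for IleRS and was not called (limma adjusted p = 0.0727). It was 0.59 (0.128) without R3 P2 replicate 2 and R3 P19, and 0.9998 and called (0.0109) without replicate 1 and R3 P19.

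That test of the difference between lines called 0 of 30 synthetase genes by limma, with 6 at an unadjusted p under 0.05, against 2.91% and 17.1% of all tested probe sets. The values for the mitochondrial genes that rose in R7 were 0.56 ± 0.19 for ArgRS-m (limma adjusted p = 0.142), 0.43 ± 0.13 for TrpRS-m (0.111) and 0.65 ± 0.23 for ValRS-m (0.164). With R3 P2 replicate 2 and R3 P19 left out they were 0.69, 0.36 and 0.34. With replicate 1 and R3 P19 left out they were 0.53, 0.31 and 0.72. The ValRS-m value thus lay anywhere from 0.34 to 0.72, depending on the R3 arrays used. Over all 30 genes the first of these fits called 0 (2.35% of probe sets higher, 1.73% lower). The second called AsnRS (0.87, 0.0454) and IleRS higher (3.57% higher, 4.17% lower). With the deposited scaling a rise in R7 and no call in R3 is therefore not shown to differ between the lines for ArgRS-m, TrpRS-m and ValRS-m. After quantile normalization or with equal array medians this test called 2 of the 30 genes, which are not named here. The share of all probe sets called under those scalings is not given.

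Compared at the same stage, 0 of 30 genes differed between the lines early (limma; 2 at an unadjusted p under 0.05, against 1.07% called and 9.42%) and 0 at the intermediate stage (2, against 1.88% and 10.9%). Against R3 P2 replicate 2 alone, with R3 P19 also left out, AsnRS, IleRS, SerRS and ThrRS were called lower early in R7, where 3.91% of probe sets were. Against replicate 1 alone 0 genes were called early (0.745% lower). At the late stage LysRS was lower in R7, 873 ± 10.3 against 1062 ± 18.4 in R3 (n = 3 each; log2 -0.28 ± 0.07 SE, limma adjusted p = 0.0236), where 2.35% of probe sets were lower. The LysRS call was lost without R3 P16 (0.0562), R3 P17 (0.0706) or any single late R7 array (0.0635 to 0.0746). It was also lost with equal array medians (-0.19, 0.375), with P4 as early (0.0618) and with the compared arrays alone (0.16). ArgRS-m at that stage had 0.43 (0.0512). With R3 P19 and either P2 array left out LysRS kept its call (-0.29, 0.0267 and 0.0277). ArgRS-m (0.49, 0.0449 and 0.0447) and IleRS (0.45, 0.0366 and 0.0367) were then called higher in late R7, where 5.97% to 5.99% of probe sets were higher and 5.2% to 5.23% lower.

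The cytosolic genes moved together from array to array, and the clearest case was a single array. In the array labelled R3 P2 replicate 2, 7 of 16 cytosolic genes were over 1.5-fold above replicate 1, against 7.82% of all tested probe sets, and 0 of 14 mitochondrial genes were. The ratios were 2.37 for AsnRS, 1.86 for TrpRS, 1.77 for ValRS, 1.71 for SerRS, 1.64 for ThrRS, 1.63 for LeuRS and 1.55 for HisRS. The 3 TrpRS probe sets gave 1.62, 1.74 and 1.86. TyrRS, GlnRS and LysRS were at 0.833, 0.851 and 0.894 and the ArgRS ratio was within 1% of 1, so the set did not move as a whole. With equal array medians 10 cytosolic and 1 mitochondrial genes passed 1.5-fold, and after quantile normalization 7 and 0. The mitochondrial ratios lay between 0.772 (ProRS-m) and 1.31 (ValRS-m). These are ratios of single arrays with no test.

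**Figure D4:**
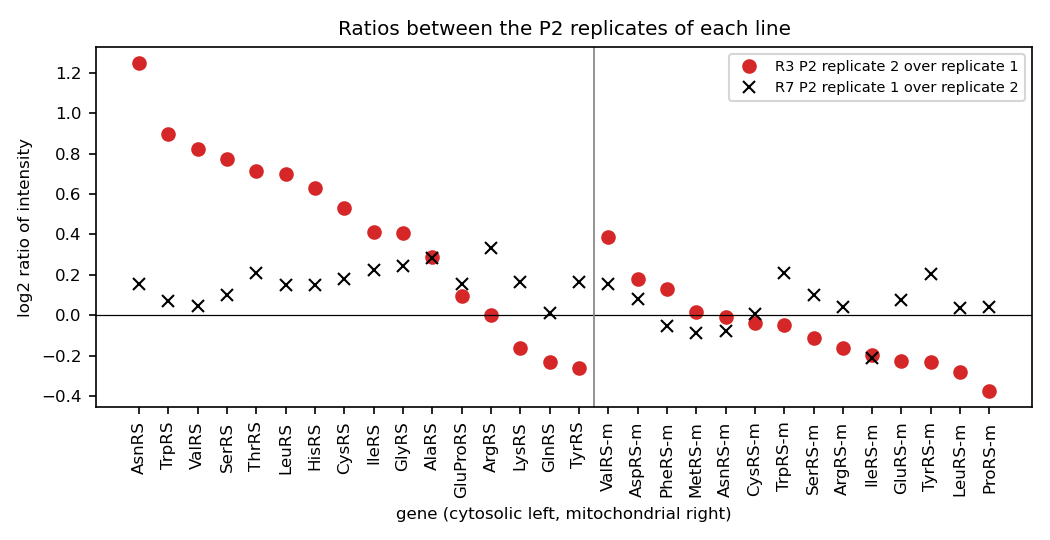
Log2 ratio of intensity between the P2 replicates of each line (y axis) for the 30 genes, cytosolic left and mitochondrial right of the grey line; circles are R3 replicate 2 over 1, crosses R7 replicate 1 over 2. The R3 ratios of the cytosolic genes run from 0.833 to 2.37, those of the R7 pair from 1.01 to 1.26.

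AsnRS, described after its values were seen, read 756 and 1794 in R3 P2 replicates 1 and 2, then 806, 1054, 973 and 788 at P5 to P8 and 734, 722 and 584 in the late arrays. The next highest of the 18 readings after 1794 was 1054. In R7 AsnRS read 875, 788 and 778 early, 919 at P4, 823 and 817 at P7 and P8, and 688, 630 and 506 late. ValRS read 736 and 1303 at R3 P2, 669, 811, 1139 and 620 at P5 to P8, and 568, 554 and 635 late. It was thus high at R3 P7 as well, 1.84-fold above P8. In R7 ValRS read 821, 796 and 843 early, 1096 at P4, 924 and 804 at P7 and P8, and 522, 606 and 421 late, with its R7 peak at P4 and its lowest value at P19. The highest reading was 3.54 times the lowest for AsnRS and 3.09 times for ValRS.

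SerRS, for serine, the gene of the set with the highest mean intensity, read 1705 and 2912 at R3 P2, 1779, 2314, 2334 and 1876 at P5 to P8, and 1656, 1603 and 1517 late. In R7 it read 2017, 1882 and 1920 early, 2381 at P4, 2357 and 2192 at P7 and P8, and 1592, 1738 and 1411 late. SerRS thus shared with AsnRS and ValRS its highest reading in R3 P2 replicate 2, a reading at R7 P4 above the R7 early ones and late R7 readings below all other R7 readings. GluRS-m, for mitochondrial glutamate, with the lowest mean intensity, read 73.4 and 62.7 at R3 P2, 64.4, 62.2, 70.6 and 58.7 at P5 to P8, and 65.5, 65.8 and 71.3 late. In R7 it read 68.4, 64.9 and 58.3 early, 52.6 at P4, 64.4 and 51.9 at P7 and P8, and 69.1, 64.3 and 73.2 late. Its early and late arrays overlapped in both lines, with the highest reading 1.41 times the lowest.

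As a description of this joint movement, each gene was correlated over the 18 arrays with the mean of the other cytosolic genes, after each line's mean was subtracted; the points share arrays and scaling, so no p is given. Pearson's r was above 0.8 for 11 of 16 cytosolic genes, among them LeuRS (0.97), ThrRS (0.95), SerRS (0.94), ValRS (0.92) and AsnRS (0.92), for 0 of 14 mitochondrial genes and for 1.22% of all tested probe sets. The cytosolic median was 0.84, and it was 0.79 without R3 P2 replicate 2 and R3 P19, 0.89 within R3 and 0.82 within R7. IleRS (0.72), LysRS (0.50), TyrRS (0.43), GlnRS (0.27) and ArgRS (0.20) followed the others less closely. LysRS, which fell in R7, is thus among the genes with lower r: its readings at R3 P2 were 1296 and 1158, where most of the genes with high r had their peak in replicate 2. Among mitochondrial genes r ran from -0.76 (ProRS-m) to 0.56 (CysRS-m), with 7 of 14 below 0. The highest of all 18 readings was in R3 P2 replicate 2 for 10 of 16 cytosolic and 1 of 14 mitochondrial genes, against 8.38% of tested probe sets. The lowest was in R7 P19 for 9 and 2, against 12.4%.

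**Figure D5:**
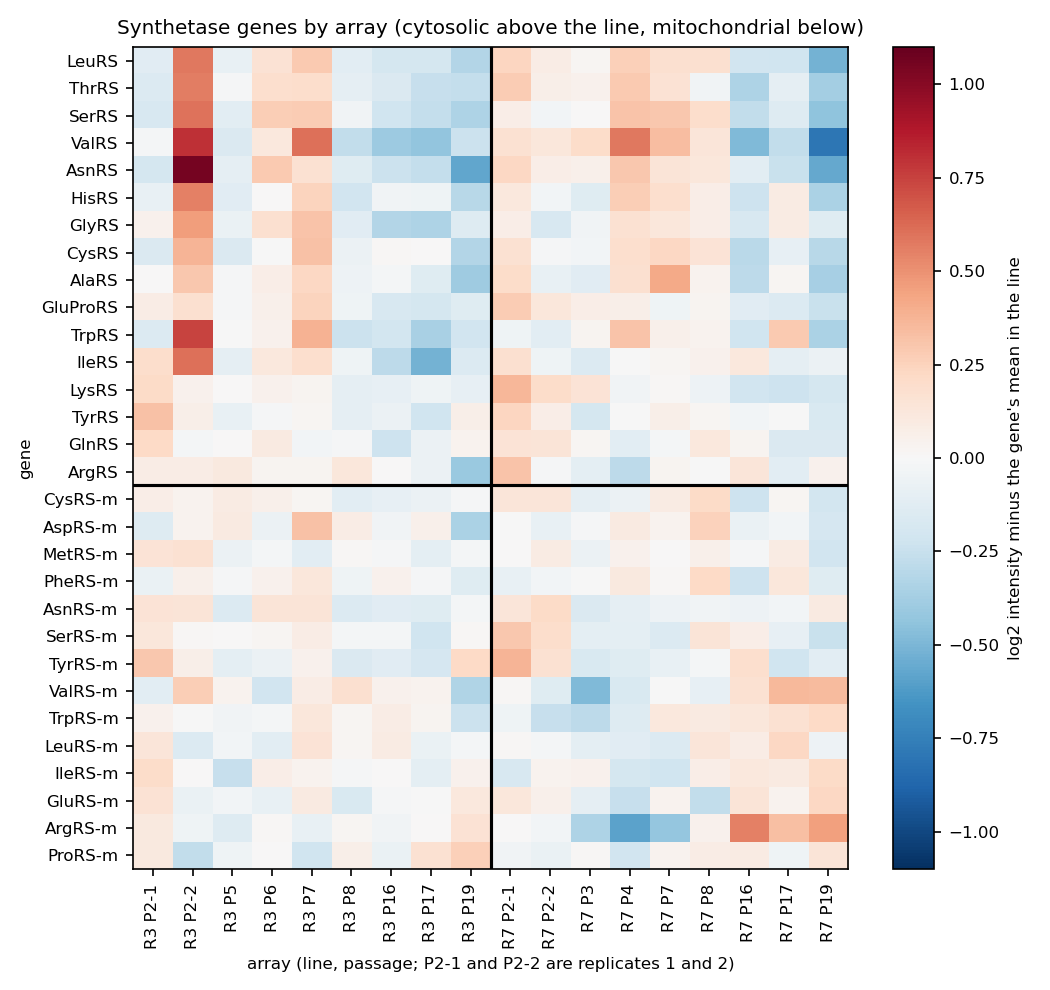
Log2 intensity minus the gene's mean in the line (colour) for the 30 genes (rows, by r with the other cytosolic genes) in the 18 arrays (columns). The upper 11 cytosolic rows have r above 0.8, and 10 of the 16 cytosolic rows have their highest intensity in R3 P2 replicate 2 and 9 their lowest in R7 P19, as deposited; with equal array medians 8 of 16 cytosolic genes were below 0 from early to late in R7.

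Smaller differences lay between single arrays of nearby passages, again with no test. At R7 P4 the cytosolic median was 0.23 (log2) above P3 and the mitochondrial median 0.03, with 0 genes of either class past 1.5-fold, against 4.45% of probe sets; with equal array medians these were 0.35 and 0.15. At R3 P7 ValRS (1.84) and TrpRS (1.54) were over 1.5-fold above P8, 2 of 16 against 5.7%, and 0 of 14 mitochondrial genes were. At R7 P17, TrpRS was 1.55-fold above P19, 1 of 16 against 6.18%, a count near that share. After quantile normalization or with equal array medians 0 of 16 passed 1.5-fold there.

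In R3 from early to late limma called 0% of all tested probe sets. It therefore called 0 members of the lists of genes that work beside the synthetases. In R7, where 8.75% of all tested probe sets rose and 11.2% fell, of 7 tested partners and paralogs, AIMP2, a scaffold protein of the multi-synthetase complex, rose (log2 0.23 ± 0.07 SE, limma adjusted p = 0.0447) and beta-PheRS, a subunit of the cytosolic phenylalanine enzyme, fell (-0.40 ± 0.08, 0.00581). The beta-PheRS readings were 781, 670 and 678 early and 600, 510 and 503 late, with no overlap, while its partner subunit alpha-PheRS had -0.01 (0.996). Of 12 genes of tRNA maturation, 0 rose and 1 fell, the tRNA methyltransferase gene Trm7-34 (-0.37, 0.0369). Of 4 cytosolic elongation genes 0 rose and 1 fell, eEF1alpha2 (-1.42 ± 0.43, 0.0355). Of 11 mitochondrial translation factors 0 rose and 2 fell, the elongation factor genes mEFTu2 (-0.50, 0.0374) and mEFTs (-0.28, 0.0455). The fall of mEFTs was not steady. It read 422, 427 and 380 early, 491 at P4, 584 and 509 at P7 and P8, and 315, 369 and 334 late. Mitochondrial ribosomal protein genes rose in 7 and fell in 5 of 69, and cytosolic ones rose in 1 and fell in 0 of 37. Ribosome biogenesis genes rose in 1 (NHP2, 0.34) and fell in 1 (Non1, -0.49) of 17. The counts of the longer lists, 7 and 5 of 69 and 1 and 1 of 17, were near or below those shares.

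Among genes of the amino acid starvation response, 0 of 11 tested rose in R7 and 2 fell, near the 8.75% and 11.2% of all tested probe sets. They were crc, the Drosophila ATF4 gene (-0.37 ± 0.09 SE, limma adjusted p = 0.0157), and CG11899 (-1.35 ± 0.31, 0.00997). The crc readings were 6037, 5406 and 5850 early and 3983, 5194 and 4311 late. AsnS, asparagine synthetase, had -0.53 and was not called (0.0529). Of 10 amino acid transporter genes 1 rose, CG13248 (1.68, 0.00111), and 3 fell, CG7888 (-1.53, 0.000759), CG1607 (-3.21, 0.00288) and JhI-21 (-0.78 ± 0.21, 0.0215), an amino acid transporter gene first found as juvenile hormone inducible. For CG7888 and CG1607, 2 of the 3 late readings were below 32 and set to it. JhI-21 read 841 and 1687 in the R3 P2 replicates, and 946, 867 and 906 in early and 559, 531 and 492 in late R7 arrays. Its r with the cytosolic synthetase mean was 0.92, against 0.77 for AsnS and 0.66 for crc. JhI-21 was also among the tested genes most like that mean. The r of the other list members is not given here, so these values do not describe the lists as a whole. With R3 P19 and either R3 P2 array left out, in R7 4 of 11 starvation response genes and 4 of 10 transporters fell, and mitochondrial ribosomal protein genes rose in 14 and fell in 10 of 69, against 13.2% of probe sets higher and 16.5% lower. In R3 the counts rested on the P2 array. Without replicate 2 and R3 P19, 2 of 11 starvation response genes, 1 of 10 transporters and 25 of 69 mitochondrial ribosomal protein genes fell, against 6.26%, and without replicate 1 and R3 P19 these counts were 0, 2 and 0, against 0.548%.

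Markers of cell types that the cultures could hold also moved over the R7 passages. Of 12 tested haemocyte markers 0 rose and 6 fell, against 8.75% and 11.2% of all tested probe sets, and the summed intensity of the 13 with a probe set was 5482 to 16385 in early and 2683 to 5105 in late R7 arrays, against 6623 to 7220 and 5857 to 8216 in R3. Of 6 neuroblast markers 0 rose and 6 fell, from sums of 501 to 697 to sums of 124 to 158. In late R7, 4 of the 6 were at the floor in all arrays, which limits the size of their tested fall. The sums were 416 to 506 at R7 P7 and P8, and in R3 161 to 519 early and 141 to 423 late. Fat body markers fell in 2 of 4 and rose in 0, muscle structure markers fell in 1 of 3 and rose in 0, adult muscle precursor markers rose in 1 and fell in 1 of 6, and neuron markers rose and fell in 0 of 3. In RNA from whole cultures fewer cells of a type and less RNA per cell cannot be told apart. The part of these markers in the synthetase differences was not tested.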

How the data were processed

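RNA of both lines was hybridised to Affymetrix 3' expression arrays after labelling with biotin, per the labels' protocols. The authors deposited 1 intensity per probe set and array, on a linear scale; the summarisation and scaling are not given in the sources used here. Of the 18952 probe sets in the table, 183 are controls. Symbols were read from the annotation of the array and updated by Entrez number: 13646 non-control probe sets had 1 symbol, 402 several and 4721 none. All 30 synthetase symbols were found in the RefSeq gene table. TrpRS had 3 probe sets and the other genes 1; IleRS, ThrRS and ValRS carry the suffix _s_at, which marks probe sets that can match several transcripts.

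Values below 32 were set to 32 before log2. The 10200 non-control probe sets above 32 on at least 2 arrays were fitted by lmFit and eBayes of limma 3.58.1 (R 4.3.3). All 18 arrays entered 1 fit of 7 groups (11 residual degrees of freedom), and a separate fit had a slope on log2 passage per line. Benjamini-Hochberg adjustment ran over all tested probe sets, and calls had an adjusted p under 0.05. Group values are means of deposited intensities ± SD over arrays, fold changes are from the log2 fit, and SE is limma's. The number of arrays limits the precision.

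Genes named with a value in every array are those called in R7, R3, the interaction or the slopes and those with the highest and lowest mean; in related lists, up to 4 with the smallest adjusted p in R7. AsnRS, ValRS and IleRS were added after their values were seen. The members, lists and comparisons were chosen with earlier results of these data known, so no count is independent evidence. The fit was checked on simulated data. Alternatives were the scaling, filter, floor, variance prior, probe sets per gene, stage of P4, arrays in the fit, a replicate block, linear passage and leaving out arrays, among them R3 P19 with P2 replicate 2 and, added after seeing the data, R3 P19 with P2 replicate 1.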

Additional observations from a re-analysis of the deposited data

Results flagged for a closer look

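Of 7 tested partners and paralogs and 10 amino acid transporters, 1 gene each differed between the lines in the change from early to late passages. In other lists, mitochondrial ribosomal protein genes had 2 of 69 called higher. Haemocyte markers had 1 of 12, neuroblast markers 3 of 6 and muscle structure markers 1 of 3 called lower. For AIMP2, the scaffold gene of the multi-synthetase complex, the R7 change exceeded the R3 change by 0.482 on the log2 scale (limma interaction, adjusted p = 0.0361). AIMP2 read 1008, 1008 and 954 in early and 1125, 1160 and 1202 in late R7 arrays, and 997 and 1078 in early and 803, 862 and 959 in late R3 arrays, so it was higher late in R7 and lower late in R3 with no overlap in either line. For the amino acid transporter gene CG13248 the difference was 2.183 (limma interaction, adjusted p = 0.00951), with 125, 100 and 109 in early and 313, 351 and 407 in late R7 arrays. In R3, CG13248 read 85.2 and 125 early and 101, 61.0 and 62.4 late. Among all tested probe sets 2.91% had a called interaction. Without R3 P2 replicate 2 and R3 P19 (2.35% of probe sets higher, 1.73% lower) the difference was 0.49 for AIMP2 (limma adjusted p = 0.0349) and 1.80 for CG13248, which was not called (0.0588). Without R3 P2 replicate 1 and R3 P19 (3.57% and 4.17%) it was 0.61 (0.00904) and 2.35 (0.0119). No synthetase gene met the same test with all arrays and the deposited scaling. In the group of 4 arrays, R3 intermediate, no single array was flagged. This says nothing of the smaller groups, which hold R3 P2, R3 P19 and all R7 arrays.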

How the results depend on the processing

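Of 30 synthetase genes, limma called 5 in R7 from early to late, and 9 after quantile normalization, 8 with P4 counted as early and 9 without R3 P19 and either R3 P2 array (2 to 9 with 1 array left out). From early to intermediate in R7 the count was 0, and 1 after quantile normalization, 1 with P4 as intermediate, 1 with early arrays at P2 only and 2 without R3 P19 and either R3 P2 array (0 to 1). From intermediate to late in R7 it was 1, and 0 with P4 as early, 4 with P4 as intermediate, 0 with the compared arrays alone and 3 without R3 P19 and either R3 P2 array (0 to 2). In R3 from early to late it was 0, 1 without R3 P2 replicate 2 and R3 P19 and 2 without replicate 1 and R3 P19 (0 to 4). The interaction had 0, and 2 with quantile normalization, equal array medians or no R3 P2 replicate 1 and R3 P19 (0 to 2). R7 against R3 had 0 early, 1 after quantile normalization and 4 without R3 P2 replicate 1 and R3 P19 (0 to 1), and 1 late, and 2 each after quantile normalization, without the dimmest 30% of probe sets, with 1 probe set per gene, with a floor of 64 and with P2 as the early arrays, 0 with P4 as early or the compared arrays alone, and 3 without R3 P19 and either R3 P2 array (0 to 2). The R7 slope had 5, and 11 after quantile normalization, 3 with no filter, 8 with linear passage, 8 without R3 P2 replicate 2 and R3 P19 and 9 without replicate 1 and R3 P19 (3 to 8); the R3 slope had 0, and 2 without replicate 1 and R3 P19 (0 to 2). Leaving out replicate 1 with R3 P19 was chosen after seeing the data. The other 3 comparisons kept 0 under every alternative run. No direction of a called gene reversed. The cause of these changes was not tested. With all arrays, 19.9% of all tested probe sets were called in R7 from early to late and 19.6% had a called R7 slope. The shares under most of these alternatives are not given here, so a change in a count is not a result about the synthetases. The replicate numbers of the P2 arrays did not pair the lines: replicate 1 minus 2 in R3 and in R7 correlated at -0.0087 over 10200 probe sets, and with a replicate block the R7 count from early to late was 6, with ValRS added, that of the R7 slope 6, with ThrRS added, and the other counts were as before. ValRS-m was also not called with no filter (adjusted p = 0.0895), a floor of 16 (0.051), the compared arrays alone (0.0618) or early arrays at P2 only (0.13).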

Other observations

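Outside the synthetase genes, the tested genes whose pattern over the 18 arrays was most like the mean of the 16 cytosolic synthetases, with each line's mean subtracted, were bor (Pearson r = 0.96), eIF2Bdelta (0.95), Spg7 (0.95), CG8728 (0.94) and CG3803 (0.94). The gene eIF2Bdelta encodes a subunit of the exchange factor that recharges the initiation factor eIF2, and Spg7 encodes a protease of the mitochondrial inner membrane. Without R3 P2 replicate 2 and without R3 P19 the r values were 0.95 for bor, 0.94 for eIF2Bdelta, 0.91 for Spg7, 0.94 for CG8728 and 0.94 for CG3803. These genes were chosen for their likeness, the arrays share their scaling, and the values are a description with no test.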
